A study of Mus musculus with 67 samples.

Results

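Embryos that had been exposed to high-intensity light were compared at the 4-cell and the 2-cell stage. The libraries were chosen by their titles, which gave 8 light 4-cell and 6 light 2-cell libraries, 14 of the 67 in the series. All embryos were C57BL/6 mouse embryos made by in vitro fertilization with oocytes of hormone-stimulated females. As 2-cell embryos, the light group spent 6 h under a full-spectrum bulb at 5000 lx before culture went on in the dark. The control group was kept at 0 lx, and its 7 libraries of the 2-cell stage and 6 of the 4-cell stage are used only for comparison. The study's methods describe each library as 1 blastomere picked by hand after trypsin, whereas the titles name embryos. Which blastomeres shared an embryo, litter or day is not given in the sources used here, so p-values measure the spread between these libraries. The comparison asks which maternal RNAs were cleared and which embryonic genes were activated after the exposure.

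The early mouse embryo lives on RNA that the oocyte made. Most of that RNA is removed during the first cleavages, through deadenylation and decapping, while the embryo's own genome starts transcription. A minor wave of transcription starts in the zygote and a major wave in the 2-cell embryo, where a short-lived set of genes that includes the Zscan4 family is switched on and soon off again. Genes for ribosomes, RNA processing and energy metabolism are known as products of the lasting wave.

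The values are read counts divided by a factor of each library, so a level compares 1 gene between libraries and not 2 genes with each other. They are relative to the other reads of a library, and a smaller amount of total RNA in a blastomere cannot be read from them. The factors did not bring the libraries to a common total, so a level is not a share of its library. Reads numbered 836010 to 6978458 in the light 2-cell and 952397 to 7072597 in the light 4-cell libraries. The 2 genes at ribosomal RNA, CT010467.1 and Gm42418, took 54.6% to 67.7% of the reads. The number of genes with a value above 1 was 14402 ± 942 (SD, n = 6) at the 2-cell and 12047 ± 744 (SD, n = 8) at the 4-cell stage (2-sided exact permutation test, p = 0.000666). With reads thinned to 1 depth the numbers were 12871 ± 229 and 11097 ± 422 genes with a read (exact permutation test, n = 6 and 8, p = 0.000333, the smallest this design allows). On the log2 scale 39.6% of all squared distance among libraries lay between the stages (exact permutation test, p = 0.000333). The summed level of Y-linked genes reached the presence threshold (10 of every 1000000 reads outside the ribosomal RNA genes) in 8 of 8 light 4-cell but in 2 of 6 light 2-cell libraries. Xist was at 1.68 to 115 in light 2-cell and 3.86 to 38.9 in light 4-cell libraries. In control the threshold was reached in 3 of 7 2-cell and 4 of 6 4-cell libraries, with Xist at 2.78 to 13.0 and 1.64 to 521. The part of embryo sex in the results below was not tested beyond fits on chosen libraries. Of the follicle markers, Fshr and Dcn had no read in any of the 14 libraries, while Tnfaip6 reached 52.5, Col1a1 14.7, Vim 13.3 and Star 13.0 in a light 2-cell library, and Star 13.3 and Col1a1 13.5 in a light 4-cell library. The list of cumulus and granulosa genes (12 of its 16 members are in the table, 5 passed the filter and 1, Tnfaip6, fell) summed to 6.61 to 66.6 in light 2-cell and 0 to 14.6 in light 4-cell libraries. The sperm list summed to 116 to 392 and 17.6 to 44.9, most of it Odf2, with Prm1 and Prm2 at 0 in every light 2-cell library and at most 3.44 at the 4-cell stage.

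Between the stages 1283 genes rose and 5010 fell, out of 17258 tested, each of which exceeded a value of 1 in 3 or more libraries. A gene was called when its change was at least 2-fold with an adjusted p under 0.05 in limma on log2(value + 1), so that 7.43% of the genes tested were called higher and 29.0% lower, 36.5% together. A fold change on this scale understates the change of low genes. The median of all genes was itself -0.56 on the log2 scale, and list medians below stand beside it. Counts of called list members below stand beside 7.43% higher and 29.0% lower. The split between rises and falls depended on the scaling. With the libraries scaled by the median ratio of their genes, 2004 genes rose and 4081 fell, and with quantile normalization 2750 rose and 2936 fell. Scaling to the reads outside the 2 ribosomal RNA genes gave 1874 and 4178. The stages did not overlap, in the sense that every library of one lay above every library of the other, for 284 of the genes called higher and 1903 of those called lower, beside 13.0% of all genes tested (1.74% with 4-cell above, 11.2% with 2-cell above). With only the 2 light 2-cell libraries that held Y-linked reads against the 8 light 4-cell libraries, 747 genes rose and 3489 fell.

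The steepest falls among genes without overlap, leaving out those with no read in most 4-cell libraries, were those of Obox3, Cdr2, Ccng2, Tesc, Adarb2, Grm2, Sebox, Zbed3, Wee2 and Phf1. Zbed3 was at 3357 to 12931 (median 8621) over the 6 light 2-cell libraries and at 90.6 to 246 (median 174) over the 8 light 4-cell libraries, so the lowest 2-cell library stood far above the highest 4-cell library (log2 fold change -5.61 ± 0.26 SE, adjusted p = 1.49e-15). Zbed3 encodes a partner of the subcortical complex of the oocyte and early embryo. Tesc was at 166 to 1185 (median 322) over the 6 light 2-cell libraries and at 2.47 to 22.6 (median 6.13) over the 8 light 4-cell libraries (log2 fold change -5.80 ± 0.48 SE, adjusted p = 2.71e-10). Tesc encodes tescalcin, a calcium-binding protein. Phf1 was at 311 to 956 (median 619) over the 6 light 2-cell libraries and at 3.86 to 31.1 (median 10.3) over the 8 light 4-cell libraries (log2 fold change -5.57 ± 0.42 SE, adjusted p = 4.37e-11). Phf1 is an accessory factor of the Polycomb repressive complex that methylates histone H3. Sebox and Obox3 encode homeobox proteins of the oocyte and early embryo. Sebox went from 111 ± 87.0 to 1.47 ± 2.59 (mean ± SD, n = 6 and 8) and Obox3 from 126 ± 122 to 0.582 ± 1.03, and reads of Obox3 may be shared with other Obox copies. Wee2 was at 246 to 1472 (median 529) over the 6 light 2-cell libraries and at 0 to 38.9 (median 23.6) over the 8 light 4-cell libraries (log2 fold change -5.59 ± 0.64 SE, adjusted p = 8.77e-08). Wee2 is the oocyte kinase that restrains the cell-cycle kinase Cdk1. Ccng2 encodes cyclin G2, Adarb2 a member of the RNA-editing deaminase family, and Grm2 a glutamate receptor. Their log2 fold changes were -6.00 ± 0.65 for Ccng2, -5.79 ± 0.66 for Adarb2, -5.75 ± 0.72 for Grm2 and -6.03 ± 0.63 for Cdr2. A further 423 genes called lower had no read in any light 4-cell library. Among those with a gene name, Cnn1 (calponin), Slc1a4 (a neutral amino acid transporter) and Mpped1 had the highest 2-cell means, 44.7, 38.1 and 25.8. With a floor of 3 reads per 4-cell library these were at least 15.0-fold, 12.8-fold and 8.65-fold lower, which covers counting error only. Mpped1 also had no read in 1 of the 6 light 2-cell libraries.

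Of the 15 tested genes that the growing oocyte makes for its coat, its secreted signals and its identity, 13 fell and 2 (Sohlh1 and Plat) were not called, with a list median of -3.21. The summed level of the list was 3069.7 to 16108 in light 2-cell and 259 to 447 in light 4-cell libraries, so the stages did not overlap in this sum. Most of it was Omt2a and Omt2b, with light 2-cell means of 3073 and 2844 beside 7741 for the list. Bmp15 was at 359 to 781 (median 501) over the 6 light 2-cell libraries and at 8.81 to 65.2 (median 34.1) over the 8 light 4-cell libraries (log2 fold change -3.96 ± 0.36 SE, adjusted p = 1.06e-09). Bmp15 and Gdf9 encode the growth factors by which the oocyte signals to its follicle. Gdf9 fell from 232 ± 186 to 26.2 ± 15.9 (log2 fold change -2.90 ± 0.45 SE, adjusted p = 9.14e-06). Omt2a was at 1064 to 6532 (median 2201) over the 6 light 2-cell libraries and at 47.6 to 139 (median 78.5) over the 8 light 4-cell libraries (log2 fold change -4.97 ± 0.32 SE, adjusted p = 2.58e-12), and its near copy Omt2b changed by -4.92 ± 0.39. Reads of this pair may not be told apart. The genes of the zona pellucida, the glycoprotein coat, fell less far: Zp1 (-2.54 ± 0.59), Zp2 (-1.81 ± 0.52) and Zp3 (-1.18 ± 0.46). Zp3 lost its call without any 1 of light 2-cell replicates 10, 14 and 15 or any 1 of light 4-cell replicates 1, 5, 7 and 14 (log2 changes of 1.00 to 1.13 in size, adjusted p between 0.066 and 0.0904).

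Genes of the subcortical complex, which sits under the membrane of oocytes and cleavage embryos and is needed for early cleavage, went down in 6 of 8 cases. Besides Zbed3 these were Nlrp4f (-3.04 ± 0.59), Nlrp5 (-2.20 ± 0.48), Padi6 (-1.73 ± 0.36), Tle6 (-1.69 ± 0.55) and Ooep (-2.36 ± 0.82). Padi6 went from 123 ± 52.2 to 35.0 ± 9.05 (mean ± SD, n = 6 and 8). Khdc3, which encodes another component, went the other way and rose from 5.48 ± 2.39 to 37.5 ± 24.8 (log2 fold change 2.23 ± 0.63 SE, adjusted p = 0.006). Nlrp2 was at 0 to 22.7 (median 17.4) and 0 to 6.08 (median 3.59) and was not called (adjusted p = 0.098). Ooep lost its call without any 1 of light 2-cell replicates 10 and 15 (log2 changes of 1.91 to 2.17 in size, adjusted p between 0.0507 and 0.0705).

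Genes for storing and destroying maternal RNA also went down. Of the 12 genes for storage and masking, 9 fell and 3 were not called (median -2.67). Eif4enif1 was at 340.4 to 630.1 (median 547) over the 6 light 2-cell libraries and at 62.8 to 164 (median 106) over the 8 light 4-cell libraries (log2 fold change -2.30 ± 0.28 SE, adjusted p = 2.76e-07). It encodes a carrier that binds the cap-binding protein and represses translation. Eif4e1b, the oocyte form of the cap-binding protein, changed by -3.98 ± 0.56 and Cpeb1, which controls cytoplasmic polyadenylation, by -3.80 ± 0.63. Of 14 genes for RNA decay, 7 fell and 7 were not called (median -1.69), beside 29.0% called lower over all genes tested. Btg4 was at 461 to 1869 (median 778) over the 6 light 2-cell libraries and at 25.5 to 62.9 (median 35.6) over the 8 light 4-cell libraries (log2 fold change -4.45 ± 0.32 SE, adjusted p = 1.87e-11). Btg4 recruits the CCR4-NOT deadenylase to maternal transcripts. Cnot6l was at 58.6 to 215 (median 175) over the 6 light 2-cell libraries and at 0.482 to 21.1 (median 9.97) over the 8 light 4-cell libraries (log2 fold change -4.18 ± 0.55 SE, adjusted p = 9.16e-07). Cnot6l is a catalytic subunit of that deadenylase. The decapping enzyme gene Dcp2 fell from 268 ± 96.9 to 21.6 ± 7.98 and Marf1, a meiosis regulator with an RNase domain, from 769.6 ± 268 to 137 ± 31.1. The other 7 decay genes, among them Cnot1, Cnot6, Cnot8 and Zfp36l2, were not called.

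Maternal chromatin factors fell in 10 of 15 cases and 5 were not called (median -1.52). Their summed level overlapped between the stages, at 3258 to 5524 in light 2-cell and 2881 to 4986 in light 4-cell libraries. Tet3 was at 137 to 486 (median 304) over the 6 light 2-cell libraries and at 11.3 to 59.4 (median 42.7) over the 8 light 4-cell libraries (log2 fold change -3.02 ± 0.40 SE, adjusted p = 8.42e-07). Tet3 oxidizes DNA methylation of the paternal genome in the zygote. Zfp57, which protects imprinted methylation, fell from 449 ± 184 to 96.9 ± 45.3 and the oocyte linker histone gene H1foo from 55.1 ± 28.0 to 5.78 ± 4.32. Of 16 genes for meiosis and its cell cycle, 10 fell and 2 rose (median -2.02). Spin1 was at 4265 to 7601 (median 5648) over the 6 light 2-cell libraries and at 275 to 642 (median 465) over the 8 light 4-cell libraries (log2 fold change -3.66 ± 0.20 SE, adjusted p = 6.24e-14). Spin1 encodes spindlin, a histone-reading protein that is abundant in the egg. Tcl1 was at 235 to 1517 (median 358) over the 6 light 2-cell libraries and at 5.65 to 30.4 (median 17.3) over the 8 light 4-cell libraries (log2 fold change -4.95 ± 0.43 SE, adjusted p = 4.67e-10). Tcl1 is a cofactor of the kinase Akt. Bcl2l10, a survival factor of the Bcl2 family in oocytes, fell from 201 ± 82.4 to 12.3 ± 4.23. The 2 that rose were Ccnb2, a mitotic cyclin, from 35.0 ± 16.2 to 96.8 ± 43.7, and Cdc25b, a phosphatase that activates Cdk1, from 35.7 ± 27.3 to 87.5 ± 26.8. The count of 2 was 4 without any 1 of light 2-cell replicates 10 and 12 and light 4-cell replicates 1, 5 and 6.

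**Figure D1:**
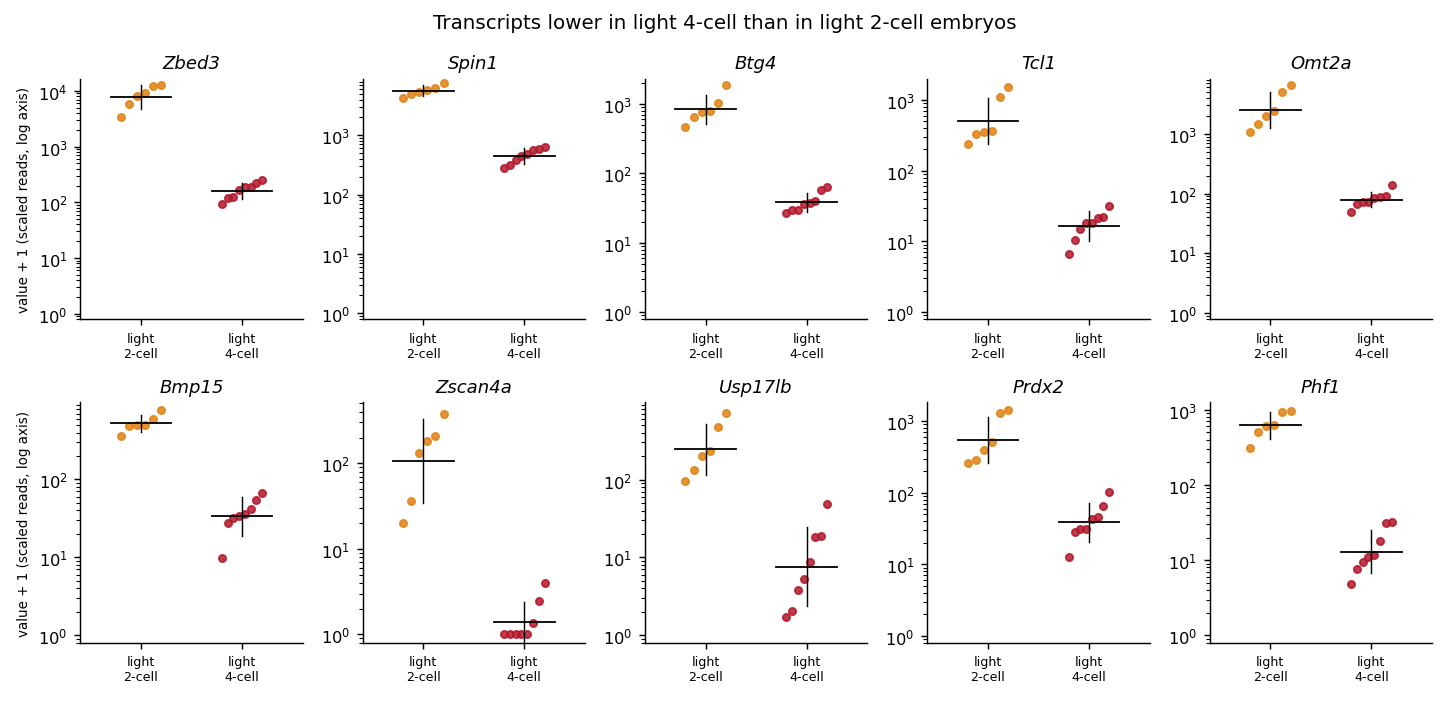
Values plus 1 of 10 transcripts called lower, on log axes, with 1 point for each of 6 light 2-cell (orange) and 8 light 4-cell (red) libraries. Horizontal bars are means and vertical bars 1 SD, both taken on the log2 scale. In all 10 panels every 2-cell point lies above every 4-cell point.

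The genes that are switched on for a short time in the 2-cell embryo also went down. Of 24 tested, 19 fell and 1 rose, with a list median of -3.41. The summed level of the list overlapped, at 764 to 4863 in light 2-cell and 575 to 1477 in light 4-cell libraries. Zscan4a was at 19.0 to 377 (median 156) over the 6 light 2-cell libraries and at 0 to 3.04 (median 0) over the 8 light 4-cell libraries (log2 fold change -6.25 ± 0.69 SE, adjusted p = 4.73e-08). The Zscan4 genes encode zinc-finger proteins of the 2-cell embryo. Usp17lb was at 95.8 to 723 (median 217) over the 6 light 2-cell libraries and at 0.734 to 47.1 (median 5.95) over the 8 light 4-cell libraries (log2 fold change -5.01 ± 0.63 SE, adjusted p = 3.64e-07), and Zfp352 was at 26.6 to 364 (median 44.3) over the 6 light 2-cell libraries and at 0 to 14.2 (median 0.367) over the 8 light 4-cell libraries (log2 fold change -4.90 ± 0.78 SE, adjusted p = 1.3e-05). Usp17lb encodes a deubiquitinase of a tandem family and Zfp352 a zinc-finger protein. The light 2-cell libraries spread widely in these genes, with Zscan4a at 19.0 in replicate 12 and 377 in replicate 14, yet the stages overlapped for none of these 3 genes. The Zscan4, Usp17l and Tdpoz families consist of near-identical copies, and the share of each member is uncertain. The gene that rose was Sp110, a nuclear body protein gene, from 344 ± 126 to 815 ± 274 (log2 fold change 1.25 ± 0.25 SE, adjusted p = 0.000268), and the 4 not called were Tdpoz2, Tdpoz3, Tdpoz4 and Tdpoz5.

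The rises without overlap, leaving out genes with no read in most 2-cell libraries, were led by Fkbp10, Tdgf1, Ago4, Tmem37, Reep1, Lats2, Bhmt, Cish, Nt5c and Cyp2s1. Bhmt was at 18.4 to 79.7 (median 35.5) over the 6 light 2-cell libraries and at 516 to 1952 (median 761) over the 8 light 4-cell libraries, and no 2-cell library reached the lowest 4-cell one (log2 fold change 4.53 ± 0.33 SE, adjusted p = 1.87e-11). Bhmt encodes the betaine-homocysteine methyltransferase, which remakes methionine from homocysteine. Reep1 was at 3.89 to 17.8 (median 8.36) over the 6 light 2-cell libraries and at 144 to 500.5 (median 261) over the 8 light 4-cell libraries (log2 fold change 4.67 ± 0.40 SE, adjusted p = 4.32e-10). Reep1 shapes the endoplasmic reticulum. Lats2 was at 0 to 5.03 (median 1.53) over the 6 light 2-cell libraries and at 5.89 to 144 (median 86.0) over the 8 light 4-cell libraries (log2 fold change 4.61 ± 0.64 SE, adjusted p = 2.16e-06). Lats2 is a kinase of the Hippo pathway, which later separates inner from outer cells. Ago4, an Argonaute that binds small RNAs, went from 2.83 ± 4.51 to 89.4 ± 35.3 (mean ± SD, n = 6 and 8). Cyp2s1 was at 0 to 87.1 (median 40.4) over the 6 light 2-cell libraries and at 213 to 463 (median 405) over the 8 light 4-cell libraries (log2 fold change 4.12 ± 0.61 SE, adjusted p = 5.24e-06). Cyp2s1 encodes a cytochrome P450. Fkbp10, a collagen chaperone, and Nt5c, a nucleotidase, changed by 5.46 ± 0.62 and 4.14 ± 0.66. Their exons overlap those of Nt5c3b and Armc7 on the other strand, and the library protocol keeps no strand. Cish, a suppressor of cytokine signalling, and Tmem37, a membrane protein gene, changed by 4.24 ± 0.65 and 4.84 ± 0.71. Of the genes called higher, 30 had no read in any light 2-cell library. Among those with a gene name, Sycn, Kcnf1 and Tmem144 had the highest 4-cell means, 12.5, 8.97 and 8.93. Against a floor of 3 reads per 2-cell library these means were at least 2.80-fold, 2.01-fold and 2.00-fold higher. Kcnf1 had no read in 3 and Tmem144 in 2 of the 8 light 4-cell libraries, so for both the stages overlapped.

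Transcription factors and signals of the pluripotent embryo split. Of 24 tested, 8 rose (Tdgf1, Klf2, Klf5, Tead4, Prdm14, Dppa2, Nanog and Nr5a2), 3 fell (Sall4, Klf4 and Sox2) and 13 were not called, with a list median of 0.31. Over all genes tested 7.43% were called higher and 29.0% lower. Tdgf1 was at 0 to 13.3 (median 7.05) over the 6 light 2-cell libraries and at 93.7 to 942 (median 225) over the 8 light 4-cell libraries (log2 fold change 5.45 ± 0.54 SE, adjusted p = 6.66e-09). Tdgf1 encodes Cripto, the coreceptor of Nodal. Klf2 was at 5.01 to 130.5 (median 38.0) over the 6 light 2-cell libraries and at 207 to 522 (median 404) over the 8 light 4-cell libraries (log2 fold change 3.41 ± 0.45 SE, adjusted p = 9.43e-07), and Klf5 rose from 141 ± 36.2 to 415 ± 148 (log2 fold change 1.51 ± 0.27 SE, adjusted p = 6.91e-05). Klf4, the other Krüppel-like factor called, fell from 48.5 ± 31.8 to 11.6 ± 6.64 (log2 fold change -1.88 ± 0.54 SE, adjusted p = 0.00666). Sox2 was at 0 to 34.3 (median 1.87) at the 2-cell stage and had reads in 1 of 8 light 4-cell libraries (log2 fold change -1.84 ± 0.66 SE, adjusted p = 0.0269). Sall4 fell from 516 ± 165 to 249.6 ± 61.9 (log2 fold change -1.01 ± 0.26 SE, adjusted p = 0.0025), and its change went under 2-fold without any 1 of light 2-cell replicates 10, 14, 15 and 16 or any 1 of light 4-cell replicates 1, 5 and 14 (log2 changes of 0.92 to 0.98 in size, adjusted p between 0.00474 and 0.00798). Without light 2-cell replicate 14 the number of falls in the list was 1.

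**Figure D2:**
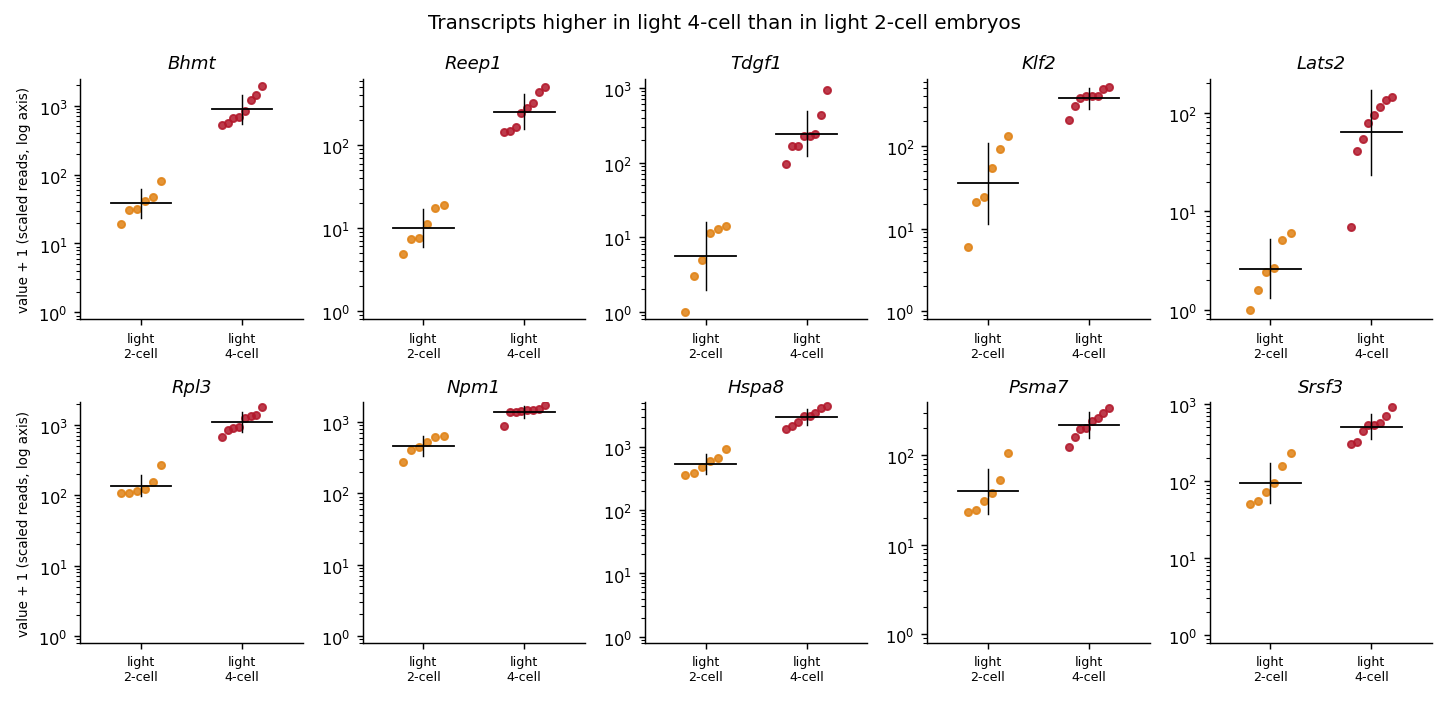
Values plus 1 of 10 transcripts called higher, on log axes, with 1 point for each of 6 light 2-cell (orange) and 8 light 4-cell (red) libraries. Horizontal bars are means and vertical bars 1 SD, both on the log2 scale. All 4-cell points lie above all 2-cell points in each panel.

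The promoters of 2 genes that rose and 2 that fell are shown so that both directions can be set side by side: Bhmt and Klf2, which rose, and Spin1 and Btg4, which fell. They run from 250 bases before to 50 after the first RefSeq start of each gene on GRCm38.p6, which is not the build of the deposited files, and were matched by symbol. Bhmt lies at chr13:93637709-93638008 (- strand), Klf2 at chr8:72318812-72319111 (+ strand), Spin1 at chr13:51100630-51100929 (+ strand) and Btg4 at chr9:51115751-51116050 (+ strand). Capitals mark, on either strand, the GC box GGGCGG, the CCAAT box CCAAT and the TATA box TATAAA, which are found in 35.9%, 37.9% and 14.2% of the 27025 promoters of the RefSeq table.
Bhmt: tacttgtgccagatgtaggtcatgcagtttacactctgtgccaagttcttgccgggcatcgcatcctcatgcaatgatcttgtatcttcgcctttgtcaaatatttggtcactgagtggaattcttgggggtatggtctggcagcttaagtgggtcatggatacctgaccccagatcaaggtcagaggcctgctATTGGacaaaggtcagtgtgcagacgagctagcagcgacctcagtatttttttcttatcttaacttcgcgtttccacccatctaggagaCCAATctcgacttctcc
Klf2: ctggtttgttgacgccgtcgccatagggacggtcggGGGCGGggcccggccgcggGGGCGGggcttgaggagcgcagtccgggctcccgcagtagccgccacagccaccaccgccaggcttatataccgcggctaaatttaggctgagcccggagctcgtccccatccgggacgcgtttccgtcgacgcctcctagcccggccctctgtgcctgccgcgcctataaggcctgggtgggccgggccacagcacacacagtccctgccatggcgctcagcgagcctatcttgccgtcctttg
Spin1: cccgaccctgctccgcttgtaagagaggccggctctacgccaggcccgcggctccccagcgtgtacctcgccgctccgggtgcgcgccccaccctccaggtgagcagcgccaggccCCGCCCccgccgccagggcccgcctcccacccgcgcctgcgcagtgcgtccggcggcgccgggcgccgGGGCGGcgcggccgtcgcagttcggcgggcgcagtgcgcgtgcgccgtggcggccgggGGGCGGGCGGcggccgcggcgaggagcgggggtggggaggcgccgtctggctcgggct
Btg4: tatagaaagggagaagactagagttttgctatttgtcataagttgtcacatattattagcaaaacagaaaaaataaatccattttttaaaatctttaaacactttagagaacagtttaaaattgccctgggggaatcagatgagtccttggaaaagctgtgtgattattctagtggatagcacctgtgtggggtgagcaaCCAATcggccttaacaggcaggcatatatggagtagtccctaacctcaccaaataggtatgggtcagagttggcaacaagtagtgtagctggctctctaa
Klf2 held 2 GC boxes and Spin1 4, while Bhmt held 2 CCAAT boxes and Btg4 1, and none held TATAAA. The G+C content was 69.3% for Klf2, 82.7% for Spin1, 48.0% for Bhmt and 39.0% for Btg4, so each direction held 1 promoter rich and 1 poor in G+C. Shares over the called genes are not given, because 65.1% of the genes tested matched a promoter of the table.

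Most of the cytoplasmic ribosomal protein genes rose. Of 79, 54 rose and 25 were not called, with a list median of 1.21, and 70 rose under each of the other 3 scalings. Their summed level was 10026 to 16893 in the light 2-cell and 22394 to 40789 in the light 4-cell libraries. Rpl3 was at 105 to 268 (median 118) over the 6 light 2-cell libraries and at 671 to 1790.1 (median 1082) over the 8 light 4-cell libraries (log2 fold change 2.99 ± 0.25 SE, adjusted p = 4.17e-10). Rpl5 was at 128 to 320 (median 162) over the 6 light 2-cell libraries and at 464 to 1082 (median 687) over the 8 light 4-cell libraries (log2 fold change 2.01 ± 0.24 SE, adjusted p = 2.2e-07), with light 2-cell replicate 12 apart from the others at the 2-cell stage. Rpl7 went from 162 ± 83.6 to 658 ± 139. Many processed pseudogenes resemble these genes and may share their reads. Of the nucleolar genes that assemble ribosomes, 8 of 65 rose and 4 fell (median 0.19), beside 7.43% and 29.0% over all genes tested. Npm1 was at 272 to 646 (median 487) over the 6 light 2-cell libraries and at 888 to 1723 (median 1444) over the 8 light 4-cell libraries (log2 fold change 1.56 ± 0.21 SE, adjusted p = 1.09e-06), and Ncl, which encodes nucleolin, rose from 424 ± 93.1 to 892 ± 228 (log2 fold change 1.06 ± 0.21 SE, adjusted p = 0.000216). Ncl went under 2-fold without light 2-cell replicate 14 or light 4-cell replicate 11 (log2 changes of 0.97 to 0.99 in size, adjusted p between 0.000615 and 0.000765). Rrs1, a factor of the large subunit, fell from 156 ± 43.2 to 31.9 ± 15.0 (log2 fold change -2.31 ± 0.37 SE, adjusted p = 1.62e-05). Under the median ratio scaling 21 rose and 1 fell. The 8 rises were 13 without light 2-cell replicate 10 and 5 without light 2-cell replicate 16.

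Translation factors rose in 14 of 35 cases and fell in 1, or in 2 without light 4-cell replicate 14 (median 0.74). Eef1a1 was at 181 to 459.5 (median 309) over the 6 light 2-cell libraries and at 672 to 1694 (median 1283) over the 8 light 4-cell libraries (log2 fold change 1.94 ± 0.23 SE, adjusted p = 2.28e-07). It encodes the elongation factor that brings aminoacyl-tRNA to the ribosome. Eef1g, of the same elongation complex, went from 49.2 ± 21.1 to 306 ± 142 and Eif2s2, a subunit of the factor that brings the initiator tRNA, from 434 ± 136 to 1162 ± 152. Proteasome genes rose in 13 of 35 cases and fell in 1 (median 0.83). Psma7 was at 22.1 to 106 (median 33.6) over the 6 light 2-cell libraries and at 124 to 340.5 (median 221) over the 8 light 4-cell libraries (log2 fold change 2.47 ± 0.35 SE, adjusted p = 2.88e-06), and the ATPase gene Psmc5 rose from 95.5 ± 68.8 to 326 ± 148. The member that fell was Psme3, an activator of the nuclear proteasome, from 438 ± 111 to 157 ± 38.6 (log2 fold change -1.47 ± 0.25 SE, adjusted p = 3.12e-05).

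Splicing genes rose in 14 of 53 cases and fell in 4 (median 0.22), beside 7.43% and 29.0% over all genes tested. Without light 2-cell replicate 15 or light 2-cell replicate 16, 9 rose. The SR proteins, which bind exons and promote splicing, went both ways. Srsf3 was at 50.1 to 231 (median 81.4) over the 6 light 2-cell libraries and at 299 to 909 (median 533) over the 8 light 4-cell libraries (log2 fold change 2.44 ± 0.32 SE, adjusted p = 9.33e-07). Srsf2 rose from 260.2 ± 95.0 to 775 ± 232, although its exons overlap those of Mettl23 on the other strand. Srsf10 fell from 516 ± 109 to 167 ± 48.9 (log2 fold change -1.65 ± 0.26 SE, adjusted p = 1.03e-05) and Srsf1 from 1052 ± 267 to 439 ± 97.1 (log2 fold change -1.25 ± 0.22 SE, adjusted p = 3.8e-05). Srsf7, a gene the study discussed, rose from 322 ± 184 to 638 ± 78.8 (log2 fold change 1.14 ± 0.26 SE, adjusted p = 0.000768), and its change was under 2-fold without light 2-cell replicate 16 (log2 change 0.94 in size, adjusted p = 0.00333). Ctnnbl1, a spliceosome-associated factor also discussed, was at 133 to 273 (median 172) and 107 to 201 (median 138) and was not called (log2 fold change -0.41 ± 0.28, adjusted p = 0.262); its sign changed under quantile normalization and edgeR. Genes of RNA polymerase and its general factors rose in 2 of 45 cases and fell in 10, beside 7.43% and 29.0% over all genes tested. Their list median of -0.38 was 0.02 under the median ratio scaling, where 5 rose and 2 fell. Gtf2a1 was at 672 to 1631 (median 1236) over the 6 light 2-cell libraries and at 133 to 229 (median 168) over the 8 light 4-cell libraries (log2 fold change -2.76 ± 0.24 SE, adjusted p = 4.56e-10), and Taf7 fell from 409 ± 289 to 102 ± 32.8. Gtf2h2, of the repair and initiation factor TFIIH, rose from 45.7 ± 31.1 to 121 ± 32.4. The count of 10 falls was 6 without light 2-cell replicate 10, and the 2 rises were 4 without any 1 of light 2-cell replicates 12 and 14 and light 4-cell replicate 5.

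Nuclear genes of oxidative phosphorylation rose in 25 of 75 cases and fell in 2 (median 0.88). Ndufs5, of complex I, rose from 2.27 ± 2.03 to 32.2 ± 11.6 (log2 fold change 3.54 ± 0.59 SE, adjusted p = 2.26e-05) and Cyc1, cytochrome c1, from 19.9 ± 25.2 to 83.2 ± 38.0 (log2 fold change 2.89 ± 0.63 SE, adjusted p = 0.000539). Cox7b, of complex IV, fell from 45.0 ± 32.1 to 6.12 ± 4.96 (log2 fold change -2.76 ± 0.67 SE, adjusted p = 0.0017). Of the 13 messages of the mitochondrial genome 3 fell and 10 were not called, beside 29.0% called lower over all genes tested. Their list median was -0.83 beside -0.56 over all genes. These 3 were mt-Atp6 (-1.23 ± 0.39), mt-Co3 (-2.14 ± 0.71) and mt-Co2 (-1.46 ± 0.49), and under the median ratio and quantile scalings none of the 13 was called. Without light 2-cell replicate 15 the call of mt-Co2 was lost (adjusted p = 0.0723) and mt-Atp6 was under 2-fold (log2 change 0.98 in size), which left 1 fall. Mitochondrial ribosome genes rose in 26 of 78 cases and fell in 2 (median 0.56). The 2 falls were 1 without any 1 of light 2-cell replicates 10, 14 and 16 and light 4-cell replicates 6, 7, 13 and 14. Mrpl15 was at 3.89 to 43.6 (median 32.6) over the 6 light 2-cell libraries and at 116 to 255 (median 166) over the 8 light 4-cell libraries (log2 fold change 2.75 ± 0.41 SE, adjusted p = 5.27e-06). Mrps31 rose from 7.81 ± 18.0 to 60.0 ± 21.6, with light 2-cell replicate 12 at 44.6 and the other 2-cell libraries at most 1.68. Mrpl11, discussed by the study, rose from 10.9 ± 11.0 to 31.6 ± 12.4 (log2 fold change 1.83 ± 0.57 SE, adjusted p = 0.0119). Mrps9 rose from 13.8 ± 10.9 to 29.8 ± 12.1 (log2 fold change 1.56 ± 0.63 SE, adjusted p = 0.0477), a call that was lost without any 1 of light 2-cell replicates 10, 15 and 16 or any 1 of light 4-cell replicates 1, 5, 6, 9, 11 and 13 (log2 changes of 0.91 to 1.65 in size, adjusted p between 0.0542 and 0.165). Mtrf1l, a mitochondrial release factor gene, was at 1.40 to 16.9 (median 6.97) and 0 to 29.9 (median 13.1) and was not called (adjusted p = 0.641).

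**Figure D3:**
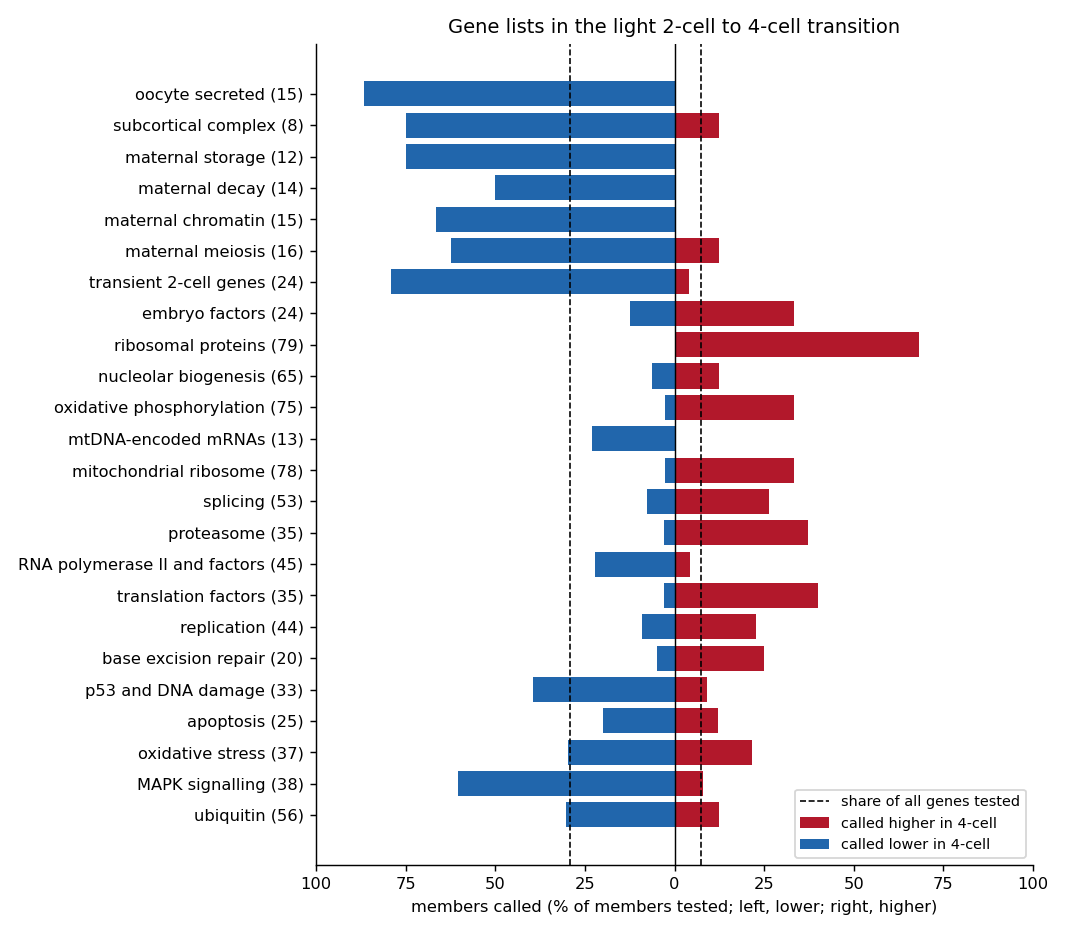
Members of each gene list called higher (right, red) and lower (left, blue) at the light 4-cell stage, in % of the members tested, whose number stands in parentheses. Dashed lines give the shares among all genes tested, 7.43% and 29.0%. Maternal and transient lists reach far to the left and ribosomal proteins far to the right.

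Replication genes rose in 10 of 44 cases and fell in 4 (median 0.37), beside 7.43% and 29.0% over all genes tested. The 4 falls were 7 without light 2-cell replicate 14 and 8 without light 4-cell replicate 9. Pold3, a DNA polymerase delta subunit gene, rose from 148 ± 44.6 to 356 ± 90.4 (log2 fold change 1.28 ± 0.26 SE, adjusted p = 0.000252), Pold1 from 17.0 ± 24.9 to 73.9 ± 18.9, and Rrm2, a subunit of ribonucleotide reductase, from 195 ± 107 to 640.4 ± 278. Of the 20 genes of base excision repair, which mends oxidized and single-stranded lesions, 5 rose and 1 fell (median 0.78). Lig3 was at 38.4 to 223 (median 173) over the 6 light 2-cell libraries and at 295 to 571 (median 340.5) over the 8 light 4-cell libraries (log2 fold change 1.48 ± 0.32 SE, adjusted p = 0.000544), and its partner Xrcc1 rose from 31.8 ± 24.6 to 118 ± 37.2 (log2 fold change 2.21 ± 0.45 SE, adjusted p = 0.000252). The glycosylase gene Neil3 fell from 9.07 ± 7.02 to 1.56 ± 2.33. The 5 rises were 3 without light 2-cell replicate 16 or light 4-cell replicate 11, and the 1 fall was 2 without any 1 of light 2-cell replicates 10, 12 and 16 and light 4-cell replicates 11 and 13.

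Of 33 targets of p53 and genes of the DNA damage response, 13 fell and 3 rose, beside 29.0% called lower and 7.43% called higher over all genes tested, with a list median of -0.54 beside -0.56 over all genes. Rrm2b was at 179 to 647 (median 301) over the 6 light 2-cell libraries and at 19.8 to 64.6 (median 36.8) over the 8 light 4-cell libraries (log2 fold change -3.18 ± 0.35 SE, adjusted p = 3.58e-08). Rrm2b is the p53-induced subunit of ribonucleotide reductase. Gadd45a was at 1.67 to 181 (median 47.9) and 0 to 2.25 (median 0) (log2 fold change -4.95 ± 0.78 SE, adjusted p = 1.13e-05), and Chek1, a checkpoint kinase, fell from 235 ± 78.0 to 48.5 ± 15.6. H2afx, the histone variant that marks breaks when phosphorylated, rose from 39.6 ± 19.8 to 188 ± 71.6 (log2 fold change 2.27 ± 0.36 SE, adjusted p = 1.29e-05), and its exons overlap those of Gm44335 on the other strand. The 3 rises were 5 without light 2-cell replicate 9. Of 25 apoptosis genes 3 rose and 5 fell, beside 7.43% and 29.0% over all genes tested (median -0.19 beside -0.56 over all genes). In control 3 of 25 rose and 6 fell. The nuclease gene Dffb rose from 2.25 ± 2.45 to 41.0 ± 20.4, Casp6 from 17.7 ± 28.0 to 65.2 ± 25.5 and Bad, which promotes cell death and whose exons overlap those of Gpr137 on the other strand, from 17.6 ± 20.9 to 55.3 ± 34.2. Bcl2l1, which opposes it, fell from 306 ± 127 to 57.9 ± 20.8 (log2 fold change -2.33 ± 0.34 SE, adjusted p = 3.7e-06) and Birc3 from 146 ± 52.3 to 55.0 ± 51.5. The 5 falls were 3 without light 2-cell replicate 14, and 2 under each of the other scalings, where the list median was above 0.

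Genes of oxidative and heat stress went both ways, 8 higher and 11 lower of 37, beside 7.43% and 29.0% over all genes tested (median -0.25, and 0.14 under the median ratio scaling). Hspa8 was at 361 to 941 (median 546) over the 6 light 2-cell libraries and at 1954 to 4502 (median 3116) over the 8 light 4-cell libraries (log2 fold change 2.45 ± 0.22 SE, adjusted p = 1.01e-09). Hsp90ab1 was at 439 to 1081 (median 538) over the 6 light 2-cell libraries and at 1816 to 4417 (median 2927) over the 8 light 4-cell libraries (log2 fold change 2.20 ± 0.22 SE, adjusted p = 1.21e-08). Both are constitutive chaperones. Prdx2 was at 257 to 1442 (median 456) over the 6 light 2-cell libraries and at 11.8 to 103 (median 36.4) over the 8 light 4-cell libraries (log2 fold change -3.84 ± 0.42 SE, adjusted p = 4.59e-08). Prdx2 removes hydrogen peroxide. The small heat shock gene Hspb1 fell from 149.7 ± 139.5 to 7.72 ± 5.31 (log2 fold change -3.97 ± 0.61 SE, adjusted p = 7.96e-06), and the inducible Hspa1a and Hspa1b, Hmox1 and Nqo1 were also among those called lower. Of 38 MAPK pathway genes 23 fell and 3 rose (median -1.72). Mapk8 was at 179 to 309 (median 266) over the 6 light 2-cell libraries and at 14.1 to 37.3 (median 24.1) over the 8 light 4-cell libraries (log2 fold change -3.28 ± 0.33 SE, adjusted p = 1.18e-08). Mapk8 encodes a JNK kinase, and Mapk3, which encodes ERK1, fell from 80.2 ± 80.2 to 1.27 ± 1.75. Grb2, an adaptor of receptor kinases, rose from 73.9 ± 41.7 to 311 ± 106 (log2 fold change 2.25 ± 0.36 SE, adjusted p = 1.16e-05) and Myc from 18.0 ± 16.2 to 107 ± 128. Of 56 ubiquitin genes 17 fell and 7 rose, beside 29.0% and 7.43% over all genes tested. The list median of -0.55 was near the -0.56 of all genes, so the list as a whole moved like the rest. Ube2k went from 821 ± 312 to 140.3 ± 43.3 and Cul4b from 271 ± 109 to 29.4 ± 16.0 on the way down. Cdc16 went from 29.5 ± 12.6 to 88.3 ± 35.8 and Cul2 from 52.4 ± 33.6 to 153 ± 70.6 on the way up.

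The same transition was then set beside that of the control embryos, which share no library with it, to ask whether exposure went with a different clearance and activation. In the control libraries 2453 genes rose and 5719 fell of 17725 tested, 13.8% and 32.3%, or 46.1% together. Of the 15903 genes tested in both, 900 rose in both, which was 72.1% of the light and 37.7% of the control rises. In both groups 3817 fell, which was 78.6% of the light and 71.2% of the control falls. The control rises included 1487 genes not called higher in light. Of these, 1243 had a light change of the same sign and 177 (11.9%) a difference between the transitions that was itself called. Of 1547 control falls not called lower in light, 1417 had the same sign and 89 (5.75%) a called difference. A gene called in only one group was thus in most cases not shown to differ between the groups.

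The difference of the transitions, light minus control, was called for 627 of 20395 genes (limma with an interaction term over 27 libraries), 332 positive (1.63%) and 295 negative (1.45%), 3.07% together. The number moved with single libraries: it was 399 without control 2-cell replicate 9, 406, 314 and 369 without light 2-cell replicates 10, 12 and 14, and 965 without control 4-cell replicate 3. Under the median ratio scaling 611 were positive and 292 negative. Reads recovered as whole numbers gave 577 and 520 by edgeR. Among the 284 negative genes tested in both groups, 281 had a positive fold change in control. That the control value exceeded the light value follows from the sign of the difference. The 296 positive ones had a negative fold change in control. The light and control 2-cell libraries also differed in a measure of whole libraries, the ratio of Gm42418 to CT010467.1 reads. It was 1.58 to 1.77 in light 2-cell and 2.34 to 4.03 in control 2-cell libraries, without overlap. At the 4-cell stage it was 1.43 to 1.63 in light and 1.61 to 4.55 in control libraries. The part of this ratio in the differences was not tested.

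**Figure D4:**
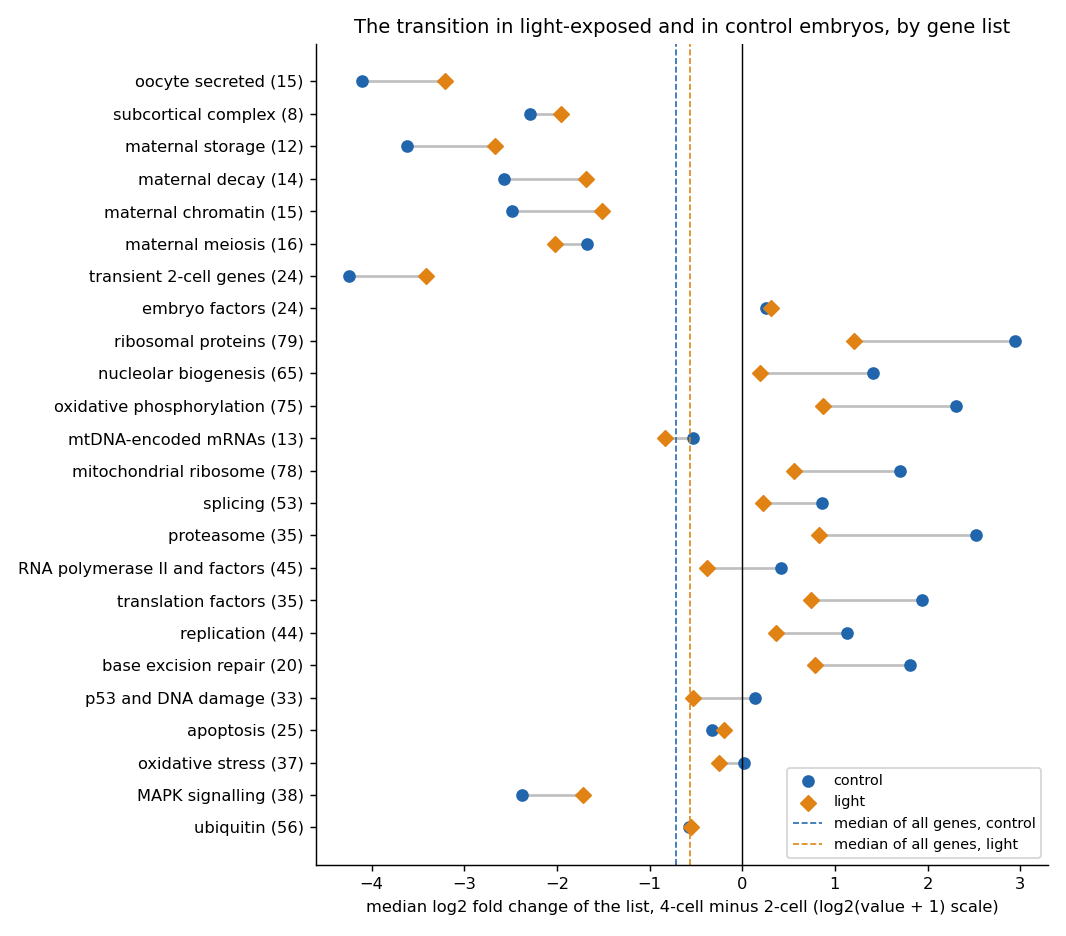
Median log2 fold change of each gene list, 4-cell minus 2-cell, in control (blue circles) and light (orange diamonds) embryos, with the number of members tested in light in parentheses. Dashed lines are the medians of all genes, -0.56 in light and -0.72 in control. The ribosomal protein list sits at 1.21 in light and 2.95 in control.

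Ribosomal protein genes were among those with a negative difference. Of 79, 54 rose in light (median 1.21) and 77 in control (median 2.95), and for 32 the difference was called negative. The count was 62 without control 4-cell replicate 3, 19 without control 4-cell replicate 5 and 16 without light 2-cell replicate 12, and it lay between 35 and 47 under the other 3 scalings. Rpl3 went from 144 ± 63.0 to 1133 ± 368 in light and from 41.3 ± 18.0 to 1331 ± 379 in control (difference -2.04 ± 0.43 SE, adjusted p = 0.00921). The groups lay closer at the 4-cell than at the 2-cell stage, where the light mean was the higher. For Rpl5 the difference was -2.16 ± 0.47 SE, adjusted p = 0.0114. Nucleolar genes rose in 8 of 65 cases in light and 34 in control, with 11 negative differences, beside 1.45% over all genes. Npm1 went from 487 ± 142 to 1403 ± 235 in light and from 371 ± 139.6 to 3076 ± 960.3 in control (difference -1.53 ± 0.37 SE, adjusted p = 0.0203).

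Hspa8 and Hsp90ab1 encode chaperones. Hspa8 went from 577 ± 215 to 3119 ± 913 in light and from 143 ± 53.5 to 4174 ± 2425 in control (difference -2.22 ± 0.46 SE, adjusted p = 0.00861). For Hsp90ab1 the difference was -1.88 ± 0.42 SE, adjusted p = 0.0124. Translation factors rose in 14 of 35 cases in light and 27 in control, with 7 negative differences, beside 1.45% over all genes. These were 4 without light 2-cell replicate 12 or light 2-cell replicate 14. Proteasome genes rose in 13 of 35 cases in light and 31 in control. Their 7 negative differences, beside the same 1.45%, were 13 without control 4-cell replicate 2 or light 2-cell replicate 15 and 4 without light 2-cell replicate 12. The 1 positive difference was that of Psme3, which fell in both groups (1.74 ± 0.43 SE, adjusted p = 0.0215). Gtf2h2 went from 45.7 ± 31.1 to 121 ± 32.4 in light and from 3.19 ± 3.96 to 115 ± 82.8 in control (difference -3.48 ± 0.80 SE, adjusted p = 0.0158). It thus started higher in light and ended at a like level. Ctnnbl1 was already at 196 ± 59.2 in light 2-cell against 51.9 ± 26.7 in control 2-cell embryos, and 148 ± 41.3 and 136 ± 32.5 at the 4-cell stage (difference -1.94 ± 0.51 SE, adjusted p = 0.0297). That call was lost without control 2-cell replicate 9 or control 4-cell replicate 4 or any 1 of light 2-cell replicates 12 and 14 (log2 changes of 1.81 to 1.84 in size, adjusted p between 0.0501 and 0.0594). Mrps9 went from 13.8 ± 10.9 to 29.8 ± 12.1 in light and from 1.30 ± 2.05 to 51.6 ± 20.7 in control (difference -3.27 ± 0.91 SE, adjusted p = 0.0378), a call lost without any 1 of control 2-cell replicates 9, 10 and 11 or any 1 of control 4-cell replicates 4, 5 and 6 or any 1 of light 2-cell replicates 9, 10, 12 and 14 or any 1 of light 4-cell replicates 1, 5, 6, 7 and 14 (log2 changes of 2.93 to 3.29 in size, adjusted p between 0.0508 and 0.088).

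Most of the maternal messages had no called difference, but the medians of their lists were positive. The median difference was 1.19 for the oocyte, 0.42 for the subcortical complex, 0.96 for the decay and 1.33 for the meiosis list. It was 0.67 for the storage and 0.69 for the chromatin list, beside 0.09 over all genes. Without any 1 library the subcortical complex median lay between -0.01 and 0.74. The lists were not tested as sets. The difference was called positive for 1 of 17 oocyte, 1 of 8 subcortical complex, 2 of 14 decay and 5 of 16 meiosis genes. It was called for 0 of 12 storage and 0 of 15 chromatin genes, beside 1.63% positive over all genes. In the meiosis list 1 difference was negative. Among the called genes, Spin1, Zbed3, Btg4, Cnot6l, Bmp15, Tcl1 and Bcl2l10 fell less steeply in light. Spin1 went from 5751 ± 1154 to 463 ± 133 in light and from 8328 ± 1891 to 156 ± 76.1 in control, lower at the start and higher at the end (difference 2.14 ± 0.32 SE, adjusted p = 0.000353). Zbed3 went from 8559 ± 3652 to 90.6 to 246 (median 174) and in control from 18973 ± 8278 to 96.8 ± 36.7 (difference 1.99 ± 0.42 SE, adjusted p = 0.00981). Btg4 went from 925 ± 498 to 39.0 ± 13.6 and in control from 2184 ± 861 to 12.1 ± 10.2 (difference 3.21 ± 0.57 SE, adjusted p = 0.00284). Cnot6l went from 163 ± 57.3 to 10.4 ± 7.82 and in control from 645 ± 134 to 4.30 ± 6.66 (difference 3.63 ± 0.85 SE, adjusted p = 0.0161). Bmp15 went from 538 ± 143 to 36.8 ± 17.2 and in control from 2506 ± 779 to 23.1 ± 15.7 (difference 3.03 ± 0.59 SE, adjusted p = 0.0061). Both started lower in light. Tcl1 and Bcl2l10 ended at like levels, 16.9 ± 7.61 in light and 17.9 ± 9.11 in control for Tcl1 and 12.3 ± 4.23 and 13.3 ± 8.97 for Bcl2l10. They started lower in light, at 649 ± 528 against 3496 ± 1534 for Tcl1 (difference 2.60 ± 0.60 SE, adjusted p = 0.0161) and 201 ± 82.4 against 1705 ± 889 for Bcl2l10 (difference 3.16 ± 0.61 SE, adjusted p = 0.00599).

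**Figure D5:**
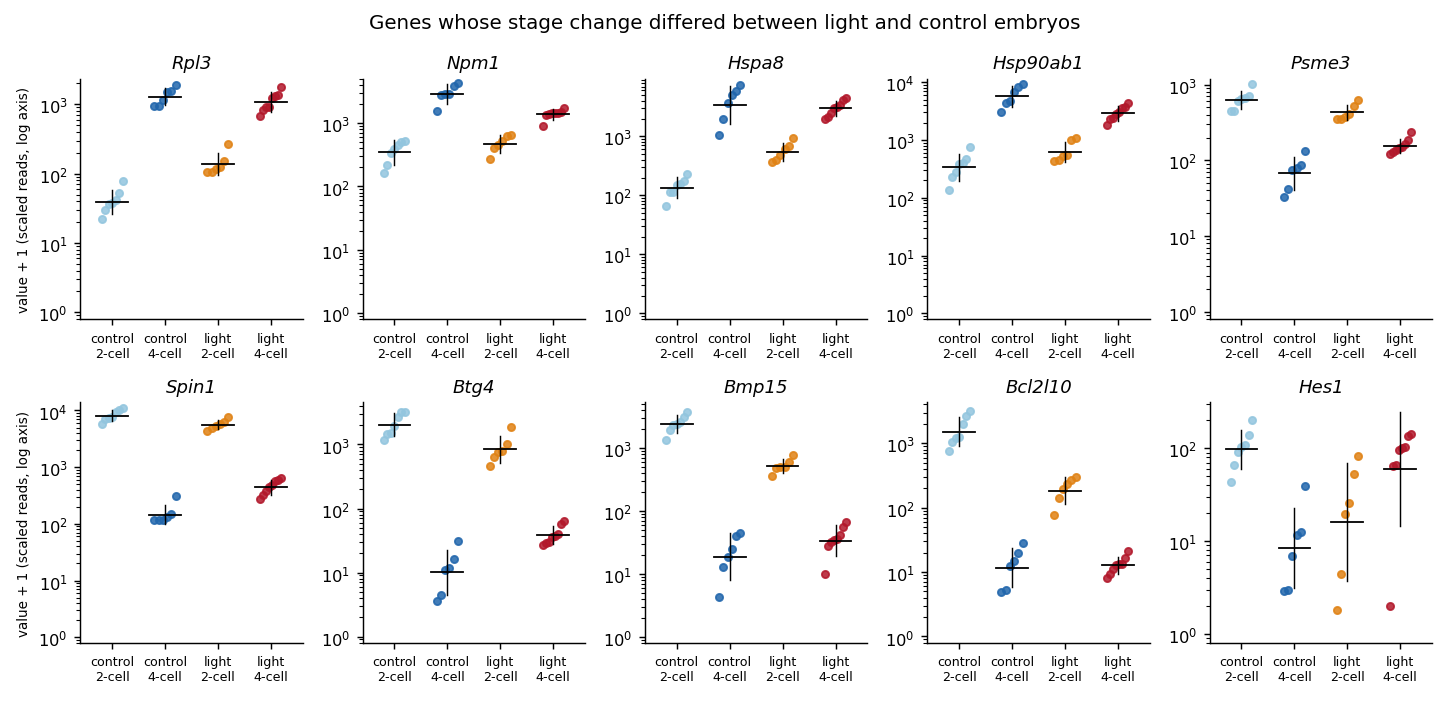
Values plus 1 of 10 genes whose difference between the transitions was called, on log axes, with 1 point for each library of the control 2-cell (7), control 4-cell (6), light 2-cell (6) and light 4-cell (8) groups. Horizontal bars are means and vertical bars 1 SD, both on the log2 scale. All light 2-cell points of Rpl3 and Hspa8 lie between the control points of the 2 stages, and 1 light 4-cell point of Hes1 lies far below the others.

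The largest positive differences with a gene name were those of Hes1, Ptprs, Lrp10, Panx1, Map4k4 and Akap11, which fell in control and were not called in light. Hes1, the repressor that acts downstream of Notch, was at 30.2 ± 31.2 and 88.2 ± 45.2 at the light 2-cell and 4-cell stages and 107 ± 51.5 and 11.8 ± 13.8 at the control stages (difference 5.43 ± 1.12 SE, adjusted p = 0.00857). Ptprs, a receptor phosphatase, was at 17.9 ± 8.69 and 22.1 ± 18.6 at the light 2-cell and 4-cell stages and 59.9 ± 21.8 and 0.342 ± 0.410 at the control stages (difference 5.33 ± 0.87 SE, adjusted p = 0.000987). For Lrp10, a lipoprotein receptor relative, the difference was 5.04 ± 1.07 SE, adjusted p = 0.00978, and for Panx1, a membrane channel, 4.56 ± 1.09 SE, adjusted p = 0.0188. For Map4k4, a kinase upstream of JNK, it was 4.46 ± 1.04 SE, adjusted p = 0.0161, and for Akap11, an anchor of protein kinase A, 4.41 ± 1.02 SE, adjusted p = 0.0159. The largest negative differences were those of Bex1, Nudt16l1, Mtm1, Tubd1, Mrpl36 and Ddx1. All but Tubd1 were called higher in control, and Bex1, Mtm1 and Tubd1 were called lower in light. Mtm1 lost its light call without any 1 of light 2-cell replicates 10, 12 and 15 or any 1 of light 4-cell replicates 1, 6 and 13 (log2 changes of 1.75 to 1.95 in size, adjusted p between 0.0513 and 0.082). Bex1 was at 69.2 ± 119 and 0.619 ± 1.26 at the light 2-cell and 4-cell stages and 5.32 ± 13.5 and 85.3 ± 100 at the control stages, with the light 2-cell mean carried by few libraries (median 23.2, highest 307; difference -6.72 ± 1.67 SE, adjusted p = 0.022). Ddx1, an RNA helicase, was at 43.1 ± 39.5 and 74.3 ± 60.4 at the light 2-cell and 4-cell stages and 3.07 ± 4.03 and 119 ± 95.3 at the control stages (difference -4.28 ± 1.03 SE, adjusted p = 0.0195). For Nudt16l1 the difference was -5.38 ± 1.06 SE, adjusted p = 0.00641, for Mtm1, a lipid phosphatase, -4.61 ± 1.15 SE, adjusted p = 0.0224, for Mrpl36 -4.30 ± 0.99 SE, adjusted p = 0.0158 and for Tubd1, delta-tubulin, -4.37 ± 1.16 SE, adjusted p = 0.0317. Tubd1 lost the call of its difference without control 2-cell replicate 9 or control 4-cell replicate 6 or any 1 of light 2-cell replicates 10, 12 and 14 (log2 changes of 3.90 to 4.28 in size, adjusted p between 0.0541 and 0.0615).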

How the data were processed

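Single blastomeres were amplified by the SMART-seq2 protocol, which does not keep the strand, and sequenced. The labels name HISAT2, HTSeq 0.9.1 and mm9. The deposited values are a signal that the authors made by dividing the reads of each gene by a factor of each library, although the study's methods speak of RPKM. Apart from 11 genes, every value of the 26414 genes came out as whole reads in each library (tolerance 0.01 reads, at least 99.95% of the values above 0 of a library), and these reads served edgeR and DESeq2.

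Groups were read from the titles. The members and the gene lists were chosen with earlier results of these data known. Main tests used limma 3.58.1 (R 4.3.3) with a trend on log2(value + 1), for genes that exceeded a value of 1 in 3 or more libraries, and Benjamini-Hochberg adjustment over all genes tested. The difference of the transitions was the interaction term over the 27 light and control libraries. Single measures of libraries were compared by 2-sided exact permutation tests over every regrouping of the 14 libraries.

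The text names the 10 called genes in each direction with the largest change among those whose groups did not overlap, with a mean of at least 10 in the higher group and no fewer libraries with reads than without in the lower group. It also names up to 3 genes in each direction with no read in any library of the lower group, the 3 called members of each list with the smallest p in each direction, members of short lists, the 6 largest differences in each direction with a mean of at least 10 in a group, and 5 genes discussed by the study. A few genes that this rule names are not reported here. Others, such as the comparison genes of the light and control groups, were picked after their values were seen. The floor of a library is 3 reads and covers counting error only. Alternatives were other scalings, pseudocounts, filters and tools (edgeR 4.0.16, DESeq2 1.42.0), thinned reads, a fit over all 67 libraries, a replicate block and the removal of each library. Settings for libraries under 1000000 reads, for Y-linked reads and without control 4-cell replicates 1 and 2 were chosen after seeing the data. RefSeq promoters were used for letters only.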

Additional observations from a re-analysis of the deposited data

Results flagged for a closer look

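Of 284 groups of libraries examined, 28 had a library apart from the rest by Dixon's criterion at the 95% level, where chance alone sets apart about 1 in 20. The first was a measure of whole libraries: the number of genes with a value above 1 was 12505 in light 2-cell replicate 16, below the other light 2-cell libraries. That library also had the fewest reads among them, 836010. With reads thinned to 1 depth it had 12499 genes with a read, and the other light 2-cell libraries had 12794 to 13176. The part of depth was not tested further.

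Libraries stood above the others in these genes. Obox3 was at 3.04 in light 4-cell replicate 9, with the others at 0 to 0.706. Cdr2 was at 4.41 in light 4-cell replicate 13, with the others at 0 to 1.12. Sox2 was at 0.981 in light 4-cell replicate 1, with all others at 0. Rpl5 was at 320 in light 2-cell replicate 12, with the others at 128 to 164. Mrps31 was at 44.6 in light 2-cell replicate 12, with the others at 0 to 1.68. Dffb was at 88.8 in light 4-cell replicate 11, with the others at 21.5 to 41.9. Bad was at 135 in light 4-cell replicate 11, with the others at 28.4 to 59.5.

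Libraries stood below the others in these genes. Lats2 was at 5.89 in light 4-cell replicate 1, with the others at 39.5 to 144. Cyp2s1 was at 213 in light 4-cell replicate 9, with the others at 343 to 463. Bmp15 was at 8.81 in light 4-cell replicate 13, with the others at 26.2 to 65.2. Nlrp4f was at 0 in light 4-cell replicate 14, with the others at 8.82 to 39.5. Nlrp5 was at 2.83 in light 4-cell replicate 14, with the others at 15.9 to 41.5. Khdc3 was at 2.45 in light 4-cell replicate 1, with the others at 17.6 to 73.0. Tle6 was at 5.03 in light 2-cell replicate 14, with the others at 49.5 to 110.1. Nlrp2 was at 0 in light 2-cell replicate 16, with the others at 10.1 to 22.7. Eif4e1b was at 0 in light 4-cell replicate 14, with the others at 7.60 to 34.8.

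The same held for further genes. Cnot6l was at 58.6 in light 2-cell replicate 12, with the others at 146 to 215. Zfp57 was at 18.9 in light 4-cell replicate 6, with the others at 70.7 to 169. Cdc25b was at 34.2 in light 4-cell replicate 5, with the others at 73.5 to 129. Npm1 was at 888 in light 4-cell replicate 5, with the others at 1374 to 1723. Mrpl15 was at 3.89 in light 2-cell replicate 16, with the others at 30.0 to 43.6. Mtrf1l was at 0 in light 4-cell replicate 13, with the others at 5.30 to 29.9. Taf7 was at 36.8 in light 4-cell replicate 14, with the others at 84.7 to 139.9. Rrm2 was at 20.0 in light 2-cell replicate 15, with the others at 120.5 to 312. Cul2 was at 3.89 in light 2-cell replicate 16, with the others at 38.4 to 106. Hes1 was at 0.981 in light 4-cell replicate 1, with the others at 63.1 to 142. Mrpl36 was at 0 in light 4-cell replicate 14, with the others at 10.6 to 29.3.

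The transition differed between light and control by the interaction test in limma for 627 genes. Among the genes named in the report, the difference (light minus control, log2) was positive at 1.99 for Zbed3, 3.21 for Btg4, 3.63 for Cnot6l, 3.03 for Bmp15, 2.14 for Spin1, 2.60 for Tcl1, 3.16 for Bcl2l10, 1.74 for Psme3, 5.43 for Hes1, 5.33 for Ptprs, 5.04 for Lrp10, 4.56 for Panx1, 4.46 for Map4k4, 4.41 for Akap11, 3.21 for Cdc25b, 1.76 for Klf5, 2.65 for Rrm2b and 1.73 for Mapk8. It was negative at -2.04 for Rpl3, -2.16 for Rpl5, -1.53 for Npm1, -2.22 for Hspa8, -1.88 for Hsp90ab1, -3.48 for Gtf2h2, -1.94 for Ctnnbl1, -3.27 for Mrps9, -6.72 for Bex1, -5.38 for Nudt16l1, -4.61 for Mtm1, -4.37 for Tubd1, -4.30 for Mrpl36, -4.28 for Ddx1, -2.40 for Rpl7 and -1.46 for Eif2s2. The difference of Cdc25b was not called without any 1 of control 2-cell replicates 9, 10 and 12 or any 1 of control 4-cell replicates 2 and 6 or any 1 of light 2-cell replicates 9, 10 and 14 or light 4-cell replicate 1 (log2 changes of 2.60 to 3.20 in size, adjusted p between 0.0507 and 0.0754). The difference of Rrm2b was not called without any 1 of control 2-cell replicates 9 and 10 or control 4-cell replicate 6 or any 1 of light 2-cell replicates 9, 10, 12 and 14 or light 4-cell replicate 5 (log2 changes of 2.44 to 2.66 in size, adjusted p between 0.0506 and 0.0678). The difference of Klf5 was not called without any 1 of control 2-cell replicates 10, 11, 12, 17 and 24 or any 1 of control 4-cell replicates 1, 2, 4, 5 and 6 or any 1 of light 2-cell replicates 9, 10, 12, 14 and 16 or any 1 of light 4-cell replicates 5, 6, 7, 9, 11, 13 and 14 (log2 changes of 1.54 to 1.85 in size, adjusted p between 0.051 and 0.0897). The difference of Mapk8 was not called without any 1 of control 2-cell replicates 8, 9, 10 and 12 or any 1 of control 4-cell replicates 4, 5 and 6 or any 1 of light 2-cell replicates 9, 10, 12 and 14 or any 1 of light 4-cell replicates 1, 5 and 7 (log2 changes of 1.63 to 1.78 in size, adjusted p between 0.0501 and 0.0773). The difference of Rpl7 was not called without control 2-cell replicate 9 or any 1 of control 4-cell replicates 4, 5 and 6 or light 2-cell replicate 12 (log2 changes of 2.18 to 2.26 in size, adjusted p between 0.0511 and 0.066). The difference of Eif2s2 was not called without any 1 of control 2-cell replicates 8, 9 and 10 or any 1 of control 4-cell replicates 1, 4, 5 and 6 or any 1 of light 2-cell replicates 12 and 14 or any 1 of light 4-cell replicates 1 and 5 (log2 changes of 1.33 to 1.45 in size, adjusted p between 0.0506 and 0.0742). The part of libraries, batches or handling in these differences was not tested.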

How the results depend on the processing

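Genes called higher numbered 1283, against 2004 under the median ratio scaling, 2750 under quantile normalization and 747 with only the libraries that held Y-linked reads. Genes called lower numbered 5010, against 2936 under quantile normalization. Leaving out each library in turn gave 1082 to 1478 higher and 4600 to 5017 lower, and 39.0% to 42.1% of the squared distance between the stages. The difference between light and control was called for 627 genes, against 1628 by DESeq2, 1522 in a fit over all 67 libraries, 1097 by edgeR, 990 with library weights and 407 with a pseudocount of 0.1, and for 314 to 965 without 1 library. Without control 4-cell replicates 1 and 2 it was called for 811. The cause of these shifts was not tested. Ctnnbl1 changed by -0.41 in the light transition, but by 0.046 in edgeR and 0.021 under quantile normalization.

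Same-numbered light libraries shared only a number (correlations of their deviations 0.0011 for number 14 and -0.011 for number 9). With the number as a replicate block, 0 genes were called higher, 0 lower and 176 for the difference, in fits where only 2 numbers recur among the 14 light libraries. Depth limits low genes most, and levels are relative to the other reads of a library. A change in RNA per cell therefore cannot be told apart from a change in composition.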
